A study of Drosophila melanogaster with 12 samples.

Results

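The Rab genes encode small GTPases that direct membrane traffic, and 36 of the 13825 genes quantified in the salivary gland transcriptomes carry a Rab symbol, that is Rab or RabX followed by a digit. Of these, 33 are Rab GTPase genes, and the other 3 (Rab3-GEF, Rab3-GAP and Rab3GAP1) encode regulators of Rabs that share the name and were counted apart. Rab proteins switch between a GTP-bound state that sits on a membrane and a GDP-bound state in the cytosol, and each marks a particular compartment, where it recruits tethers, motors and fusion factors. Guanine nucleotide exchange factors turn Rabs on, GTPase-activating proteins turn them off, and a lipid anchor added by a geranylgeranyl transferase lets them hold on to membranes. In the larval salivary gland of *Drosophila melanogaster* this traffic carries glue proteins from the endoplasmic reticulum through the Golgi into large secretory granules, which fuse with the apical membrane shortly before pupariation.

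Poly(A) RNA of glands from late larvae was sequenced at 96 hr after egg deposition (AED), in 4 groups with 3 replicates each. All larvae carried the BxGal4 driver, which directs UAS transgenes to the gland, in a w1118 background, and were raised on food with antibiotics. The sample labels place a Drs-GFP reporter in every group, whereas the study's list of crosses places it only with lglRNAi;RasV12, and if the latter holds, the reporter and the lglRNAi label cannot be told apart. The control w1118-glands had no UAS transgene. RasV12-glands expressed UAS-RasV12, the constitutively active form of the growth-promoting GTPase Ras, and lglRNAi;RasV12-glands carried UAS-RasV12 together with UAS-l(2)glRNAi against the cell polarity gene l(2)gl. The fourth group, lglRNAi;RasV12-PP, held only a part of the lglRNAi;RasV12-gland (posterior in the labels, proximal in the methods), whereas the other groups held entire glands. Each library pooled the glands of many larvae, so that values for single animals were not measured.

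Ras85D, the endogenous Ras gene on which transgene reads also count, was at 54.3 to 75.0 TMM CPM in w1118-glands and at 2040 to 3450 in the other 9 libraries. TMM CPM stands for estimated counts per 1000000, scaled between libraries by edgeR's trimmed mean of M-values. In contrast, l(2)gl was at 156, 140 and 189 TMM CPM in w1118-glands and at 191, 148 and 162 in the lglRNAi;RasV12 libraries (log2 fold change 0.05, edgeR, adjusted p = 0.81), and it was higher in the PP (0.59, edgeR, adjusted p = 0.00399). In RasV12-glands l(2)gl was higher than in w1118 (0.71, edgeR, adjusted p = 0.0016). Entire lglRNAi;RasV12-glands were lower than RasV12-glands (-0.66, edgeR, adjusted p = 0.0132). The RNAi label was therefore not borne out against w1118, whereas l(2)gl was lower against RasV12-glands, which share UAS-RasV12. The directions below refer to libraries labelled lglRNAi;RasV12. Libraries held 27584224 to 73043536 counts. Glue genes took 27.3 to 37.9% of the counts in w1118-glands, 9.9 to 11.3% in RasV12, 9.5 to 11.0% in lglRNAi;RasV12 and 5.2 to 6.1% in PP libraries, which leaves a smaller share of reads for all other genes in w1118. Without TMM (by library size), the median of all tested genes moved by 0.42, 0.43 and 0.56 on the log2 scale in the comparisons of RasV12, lglRNAi;RasV12 and PP with w1118, against medians of 0.00, 0.02 and 0.10 with TMM. Changes reported here are therefore relative to the bulk of the genes.

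Most Rab GTPases were expressed in the gland. In w1118-glands, 3 of the 33 GTPase genes had a mean of at least 100 transcripts per 1000000 (TPM, which corrects for transcript length and allows levels of different genes to be compared), 12 were between 10 and 100, 6 between 1 and 10, and 12 below 1. Golgi-associated Rab6 led with 381 TPM, followed by Rab1 (182), which acts between the endoplasmic reticulum and the Golgi, and Rab11 (158), the Rab of recycling endosomes and secretory granules. In RasV12-glands the order was different, with late endosomal Rab7 at 409 TPM, Rab6 at 360, RabX1 at 333, Rab1 at 311 and Rab11 at 298, and 7 GTPases reached 100 TPM. The same number reached it in lglRNAi;RasV12, and 6 did in the PP.

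A total of 26 members, 23 of them GTPases, passed the filter on low counts and were tested among 9012 genes. The 10 others were GTPase genes with at most 40 counts in any library and at most 0.362 TPM. They include Rab3, Rab26 and Rab27, which are known from regulated exocytosis in neurons and endocrine cells, together with Rab9D, Rab9Db, Rab9E, Rab9Fa, Rab9Fb, RabX2 and RabX5. Of these, 4 (Rab9Db, Rab9Fa, Rab9Fb and RabX5) had 0 counts in all 12 libraries, which allows up to 0.0411 to 0.109 CPM depending on the library. The Rabs best known for regulated exocytosis were thus not detectable or near the detection limit at this depth.

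Compared to w1118, the Rab genes tested were more often higher than lower in RasV12-glands. At an adjusted p of at most 0.05 (quasi-likelihood test of edgeR, p adjusted by Benjamini-Hochberg over all genes), 15 were higher and 2 lower, against 25.8% of all tested genes higher and 23.1% lower. For the 23 GTPases this amounts to 65.2% higher and 8.7% lower, with a median log2 fold change of 0.43 against 0.00 for all genes. For lglRNAi;RasV12 15 members were higher and 3 lower (background 28.2% and 23.5%), and in the PP 13 were higher and 5 lower (background 33.5% and 25.2%), with GTPase medians of 0.46 and 0.52 against 0.02 and 0.10. These comparisons share the 3 w1118 libraries and are therefore not independent of each other. A called change of at least 2-fold was found in 5 of the 26 tested members for RasV12, 6 for lglRNAi;RasV12 and 6 for the PP. For all genes the shares were 20.3%, 19.9% and 27%, and the counts of members lie near these shares. Fits on log2(TPM + 1), where the median gene itself was higher than in w1118, gave 20 members higher and 0 lower for RasV12 (all genes 61.9% and 5.43%), 21 and 0 for lglRNAi;RasV12 (64.5% and 4.59%), and 19 and 1 for the PP (59.6% and 9.75%).

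**Figure D1:**
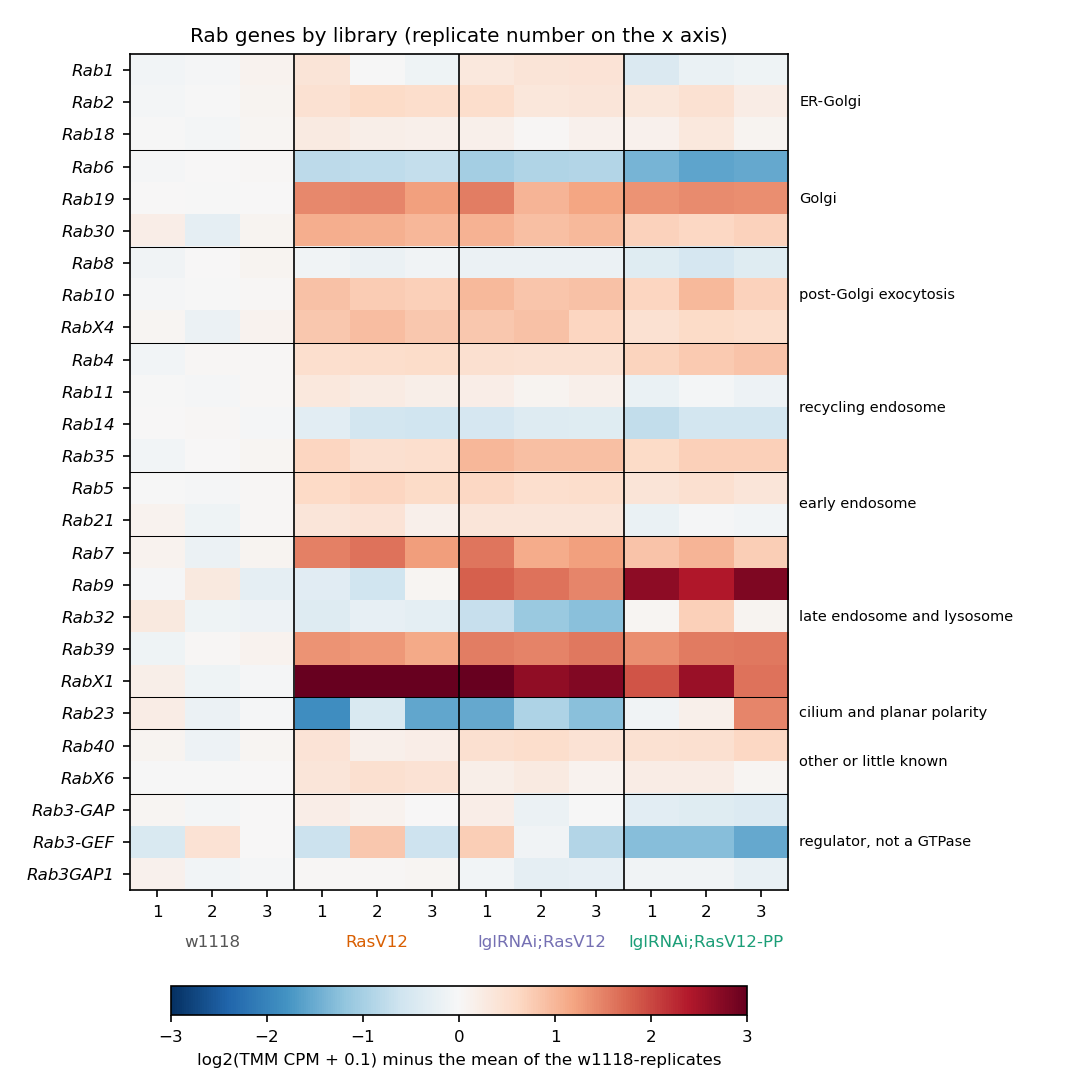
Levels of the 26 tested Rab genes (rows, by compartment) in the 12 libraries (columns, by group), as log2(TMM CPM + 0.1) minus the mean of w1118. Red is higher and blue lower than w1118, and the colours saturate at 3 in either direction, so that RabX1 lies beyond the scale in RasV12-glands. RabX1, Rab7, Rab39 and Rab19 are red in all 9 libraries with RasV12, whereas Rab6 and Rab14 are blue in the same 9.

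Expressed per library, the 33 GTPase genes summed to 1262 ± 153 TPM (SD, n = 3) in w1118, 2595 ± 193 in RasV12, 2519 ± 208 in lglRNAi;RasV12 and 1736 ± 25 in the PP. With TPM rescaled to leave out the glue genes, the sums were 2410 ± 63, 3534 ± 258, 3346 ± 252 and 1952 ± 9 TPM. On this scale the PP lay below w1118, whereas its plain TPM sum lay above, and no test was made of these sums. The composition also shifted. Rab6 made up 30.1 ± 0.6% of the GTPase TPM in w1118 and 13.9 ± 1.3%, 13.3 ± 1.3% and 11.2 ± 1.3% in RasV12, lglRNAi;RasV12 and the PP, and RabX1 made up 1.3 ± 0.1%, 12.8 ± 1.6%, 8.0 ± 1.2% and 5.7 ± 1.7% (SD, n = 3 each).

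The early secretory Rabs changed by less than 2-fold against w1118, and of these only Rab2 was called higher in each group. Rab1 was at 436, 450 and 499 TMM CPM in w1118, 604, 459 and 420 in RasV12, 572, 601.5 and 609 in lglRNAi;RasV12 and 342, 400.4 and 420 in the PP. The RasV12 libraries were spread around the w1118 range, whereas the lglRNAi;RasV12 libraries were all above it and the PP libraries all below. Against w1118 the log2 fold change was 0.10 ± 0.13 (SE) in RasV12 (edgeR, adjusted p = 0.555) and 0.36 in lglRNAi;RasV12 (edgeR, adjusted p = 0.0348), a call lost without any of 5 libraries in turn and with the replicate number as a block (adjusted p = 0.0542). Rab2, which tethers Golgi membranes and in flies also serves traffic to lysosomes, was at 86.7, 89.9 and 96.3 TMM CPM in w1118, 125, 135 and 132 in RasV12, 131, 114 and 117 in lglRNAi;RasV12 and 114, 124 and 106 in the PP. All 9 libraries with RasV12 were above w1118, and it rose in each group (log2 fold changes 0.52, 0.41 and 0.33, edgeR, adjusted p = 0.000398, 0.00189 and 0.00549). Rab18, which associates with the endoplasmic reticulum and lipid droplets, was not called in any of the 5 comparisons.

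Of the Golgi Rabs, the most abundant one fell and the less abundant ones rose. Rab6 (2L, 12107221 to 12109116, minus strand, dm6) regulates traffic at the Golgi and the exit of exocytic carriers. It was at 953, 988 and 1008 TMM CPM in w1118, 574, 584 and 596 in RasV12, 484, 526 and 533 in lglRNAi;RasV12 and 371, 330.4 and 337 in the PP. No library of a group overlapped with that of another, and the levels ran from w1118 down to the PP. The log2 fold changes were -0.75 ± 0.08, -0.93 ± 0.08 and -1.51 ± 0.08 (SE) against w1118 (edgeR, adjusted p = 1.16e-05, 2.01e-06 and 6.17e-08), and in the PP it ranked 13 of 2267 lower genes by p. On the TPM scale, where the median gene rose by 0.49, 0.55 and 0.45, the change of Rab6 was -0.07 (limma, adjusted p = 0.593) in RasV12, -0.18 (limma, adjusted p = 0.162) in lglRNAi;RasV12 and -0.96 (limma, adjusted p = 1.58e-05) in the PP, so that its calls in both entire-gland groups were lost there. Within a library, the ratio of Rab6 to Rab11 TPM, which does not depend on scaling between libraries, was 2.40 ± 0.06 in w1118, 1.21 ± 0.09 in RasV12, 1.14 ± 0.10 in lglRNAi;RasV12 and 0.94 ± 0.10 in the PP (SD, n = 3 each). Both genes enter this ratio. In mean TPM, Rab11 went from 158 in w1118 to 298 in RasV12 and 208 in the PP, and Rab6 from 381 to 360 and 195. On the TPM scale the lower ratio is therefore not a fall of Rab6 alone. By TMM, Rab6 was at -0.75, -0.93 and -1.51 against w1118. Rab11 was at 0.24, 0.14 and -0.14 there, so that the part of each gene in the ratio depends on the scaling.

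Rab19, a Golgi Rab that overlaps Arl5 on the other strand, was at 4.65, 4.62 and 4.66 TMM CPM in w1118, 12.9, 13.0 and 11.1 in RasV12, 13.7, 9.44 and 10.6 in lglRNAi;RasV12 and 11.9, 12.5 and 12.4 in the PP. The w1118 libraries were all far below the rest (log2 fold changes 1.41, 1.28 and 1.40, edgeR, adjusted p = 7.42e-06, 1.34e-05 and 4.8e-06). No use of strand is described for the counting, so reads of Rab19 and Arl5 may not be fully separated. Rab30, also placed at the Golgi, was at 34.1, 24.7 and 31.4 TMM CPM in w1118, 63.9, 62.2 and 59.8 in RasV12, 61.5, 55.3 and 58.9 in lglRNAi;RasV12 and 48.1, 46.1 and 48.3 in the PP. It thus rose in each group, with the PP between w1118 and the entire glands (log2 fold changes 1.05, 0.96 and 0.66, edgeR, adjusted p = 9.81e-06, 1.58e-05 and 0.000205).

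Rabs of the route from the Golgi to the cell surface did not move together. Rab8, which acts in traffic from the trans-Golgi to the plasma membrane, was at 117, 127 and 134 TMM CPM in w1118, 117, 111 and 117 in RasV12, 112, 111 and 113 in lglRNAi;RasV12 and 97.7, 88.5 and 98.2 in the PP. It fell only in the PP by TMM (log2 fold change -0.41 ± 0.08, edgeR, adjusted p = 0.000609), a direction that turned by library size (0.05) and in TPM (0.16). Rab10, which in fly epithelia directs the secretion of basement membrane, was at 101, 102 and 106 TMM CPM in w1118, 190.4, 174 and 169 in RasV12, 203, 183 and 190.3 in lglRNAi;RasV12 and 160.2, 202 and 166 in the PP. All 9 libraries with RasV12 lay above w1118 (log2 fold changes 0.79, 0.90 and 0.77, edgeR, adjusted p = 4.79e-05, 1.58e-05 and 3.65e-05). RabX4, a little-studied Rab that shares its locus with Kaz on the same strand, was at 2.45, 2.04 and 2.53 TMM CPM in w1118, 4.13, 4.54 and 4.13 in RasV12, 4.16, 4.36 and 3.70 in lglRNAi;RasV12 and 3.23, 3.51 and 3.41 in the PP. Its w1118 libraries did not overlap with the others (log2 fold changes 0.87, 0.80 and 0.54, edgeR, adjusted p = 0.000455, 0.000754 and 0.00782).

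Rabs of recycling endosomes changed by less than 2-fold against w1118, and not all in the same direction. Rab11, which is needed for glue granules to mature and for exocytosis in this gland, was at 358, 353 and 371 TMM CPM in w1118, 451, 425 and 406 in RasV12, 414, 382 and 399 in lglRNAi;RasV12 and 312, 344 and 322 in the PP. Its log2 fold change of 0.24 in RasV12 passed the test (edgeR, adjusted p = 0.0187) but not without w1118 replicate 2 or without RasV12 replicate 1, and those of 0.14 in lglRNAi;RasV12 and -0.14 in the PP did not pass (edgeR, adjusted p = 0.133 and 0.121). In the PP this direction depends on the scaling, with 0.32 by library size (edgeR, adjusted p = 0.00434). Rab4, of fast recycling, was at 44.2, 47.4 and 47.9 TMM CPM in w1118, 65.7, 67.2 and 68.5 in RasV12, 65.2, 63.4 and 63.5 in lglRNAi;RasV12 and 73.9, 79.6 and 83.9 in the PP. The 9 libraries with RasV12 were all higher than w1118, with the PP highest (log2 fold changes 0.53, 0.46 and 0.77, edgeR, adjusted p = 7.25e-05, 0.000188 and 2.94e-06). Rab4 overlaps Dcr-2 on the other strand. Rab35, which links recycling to the actin cytoskeleton, was at 72.8, 76.7 and 80.3 TMM CPM in w1118, 119, 106 and 109 in RasV12, 152, 143 and 143 in lglRNAi;RasV12 and 114, 125 and 125 in the PP. It was above w1118 throughout and highest in the lglRNAi;RasV12 libraries (log2 fold changes 0.54, 0.93 and 0.66, edgeR, adjusted p = 0.000142, 2.15e-06 and 1.98e-05). Rab14, of endosomes and phagosomes, was the only other member beside Rab6 to be lower in all 3 comparisons by TMM (-0.48, -0.42 and -0.61, edgeR, adjusted p = 0.00106, 0.00242 and 0.00013), but these calls were lost by library size (-0.05, -0.01 and -0.15), and in TPM the direction turned in RasV12 (0.14) and lglRNAi;RasV12 (0.18).

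Of the 5 tested Rabs placed at late endosomes and lysosomes (Rab7, Rab9, Rab32, Rab39 and RabX1), 3 were higher and 0 lower in RasV12, 4 and 1 in lglRNAi;RasV12, and 4 and 0 in the PP. RabX1 was placed among them after its levels had been seen, so that these counts are a description of the members and not evidence on the compartment. Rab5, the Rab of early endosomes, was at 170.1, 168 and 175 TMM CPM in w1118, 259, 269.5 and 254 in RasV12, 262, 242 and 245 in lglRNAi;RasV12 and 224, 237 and 219 in the PP, with no overlap between w1118 and the rest (log2 fold changes 0.61, 0.55 and 0.41, edgeR, adjusted p = 2.92e-05, 6.04e-05 and 0.00039). Rab7 (3R, 23993008 to 23995452, plus strand), which drives maturation of late endosomes and fusion with lysosomes, was at 192, 159 and 189 TMM CPM in w1118, 515, 556 and 429 in RasV12, 545, 386 and 423 in lglRNAi;RasV12 and 322, 365 and 298 in the PP. Every library with RasV12 was above every w1118 library, and the PP was below the entire glands (log2 fold changes 1.47 ± 0.15, 1.32 ± 0.15 and 0.87 ± 0.15 against w1118, edgeR, adjusted p = 1.02e-05, 1.93e-05 and 0.000337).

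RabX1 (2R, 23519839 to 23523613, minus strand), an insect Rab assigned to endolysosomal traffic, changed most of all members in RasV12 and lglRNAi;RasV12 compared to w1118, and second to Rab9 in the PP. It was at 41.5, 33.7 and 36.2 TMM CPM in w1118, 536, 524 and 376 in RasV12, 344, 234 and 255 in lglRNAi;RasV12 and 136, 223 and 114 in the PP. The groups descended from RasV12 to the PP without overlap, although the lowest lglRNAi;RasV12 and the highest PP library lay close together. The log2 fold changes were 3.69 ± 0.26, 2.90 ± 0.25 and 2.09 ± 0.25 (SE, edgeR, adjusted p = 9.6e-07, 3.19e-06 and 2.25e-05), which ranked 122 of 2325, 204 of 2539 and 577 of 3017 among the higher genes. Thus, other genes rose by more than RabX1 in each of these comparisons. Rab39, known in mammals from lysosomes and autophagy, was at 5.80, 6.56 and 6.88 TMM CPM in w1118, 16.6, 15.8 and 14.3 in RasV12, 18.7, 18.0 and 19.3 in lglRNAi;RasV12 and 16.9, 19.2 and 19.5 in the PP. It stood at a like level in all libraries with RasV12, well above w1118 (log2 fold changes 1.27, 1.54 and 1.53, each SE 0.10, edgeR, adjusted p = 1.79e-06, 4.65e-07 and 2.73e-07).

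**Figure D2:**
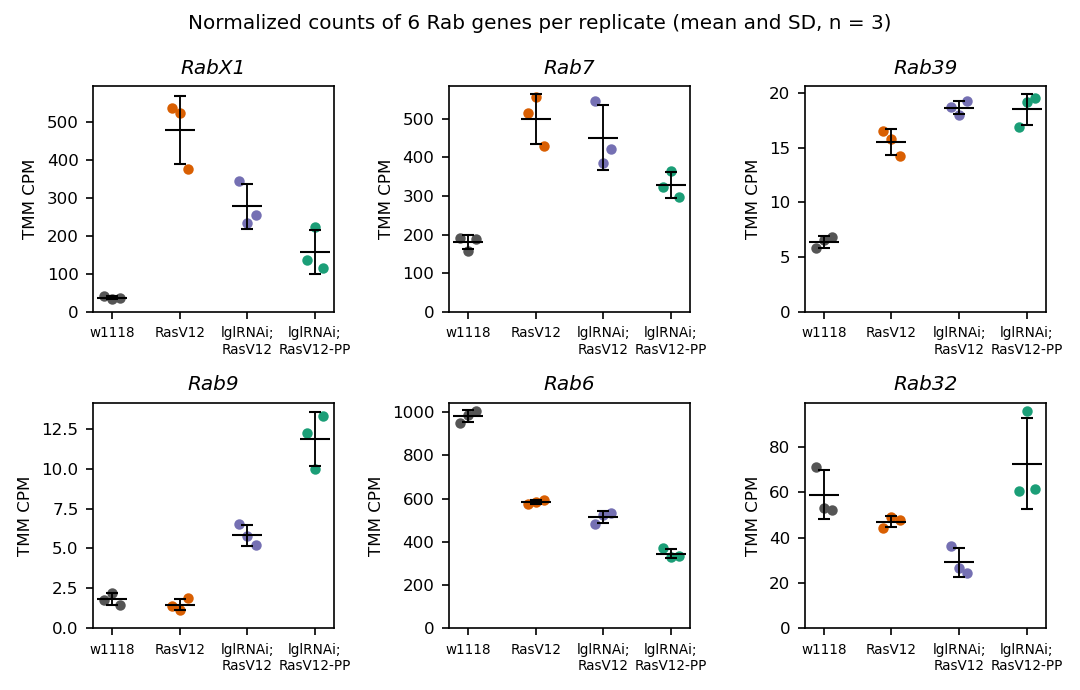
TMM CPM of RabX1, Rab7, Rab39, Rab9, Rab6 and Rab32 in each replicate (points), with mean and SD (lines), by group, each panel with its own linear axis. RabX1, Rab7 and Rab39 were higher in all 9 libraries with RasV12 than in w1118, Rab6 was lower in all 9, and Rab9 overlapped between w1118 and RasV12 but not with the other groups.

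Rab9 separated the libraries labelled lglRNAi;RasV12, entire and PP, from RasV12-glands. Rab32 was lower than in RasV12-glands in entire lglRNAi;RasV12-glands only, a call lost in 8 of the 12 fits that each left out a library. Rab9 (2L, 19432574 to 19435841, plus strand) returns receptors from late endosomes to the Golgi. It was at 1.77, 2.24 and 1.48 TMM CPM in w1118, 1.41, 1.17 and 1.89 in RasV12, 6.53, 5.75 and 5.20 in lglRNAi;RasV12 and 12.3, 9.99 and 13.3 in the PP. RasV12 and w1118 overlapped, whereas the other groups stood apart from these and from each other. Against w1118 the log2 fold change was -0.31 ± 0.22 in RasV12 (edgeR, adjusted p = 0.271), 1.66 ± 0.21 in lglRNAi;RasV12 (edgeR, adjusted p = 5.35e-05) and 2.68 ± 0.21 in the PP (edgeR, adjusted p = 1.09e-06). Rab32, the Rab of lysosome-related organelles such as the pigment granules of the fly eye, was at 71.3, 53.0 and 52.3 TMM CPM in w1118, 44.2, 49.3 and 47.7 in RasV12, 36.2, 26.8 and 24.3 in lglRNAi;RasV12 and 60.7, 95.9 and 61.3 in the PP. It was lowest in the lglRNAi;RasV12 libraries, while the PP overlapped with w1118 (log2 fold changes -0.32, -1.01 and 0.31, edgeR, adjusted p = 0.204, 0.00136 and 0.204). In TPM the fall in lglRNAi;RasV12 was -0.29 and was not called, and the PP was higher than w1118 by 0.77 and was called.

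**Figure D3:**
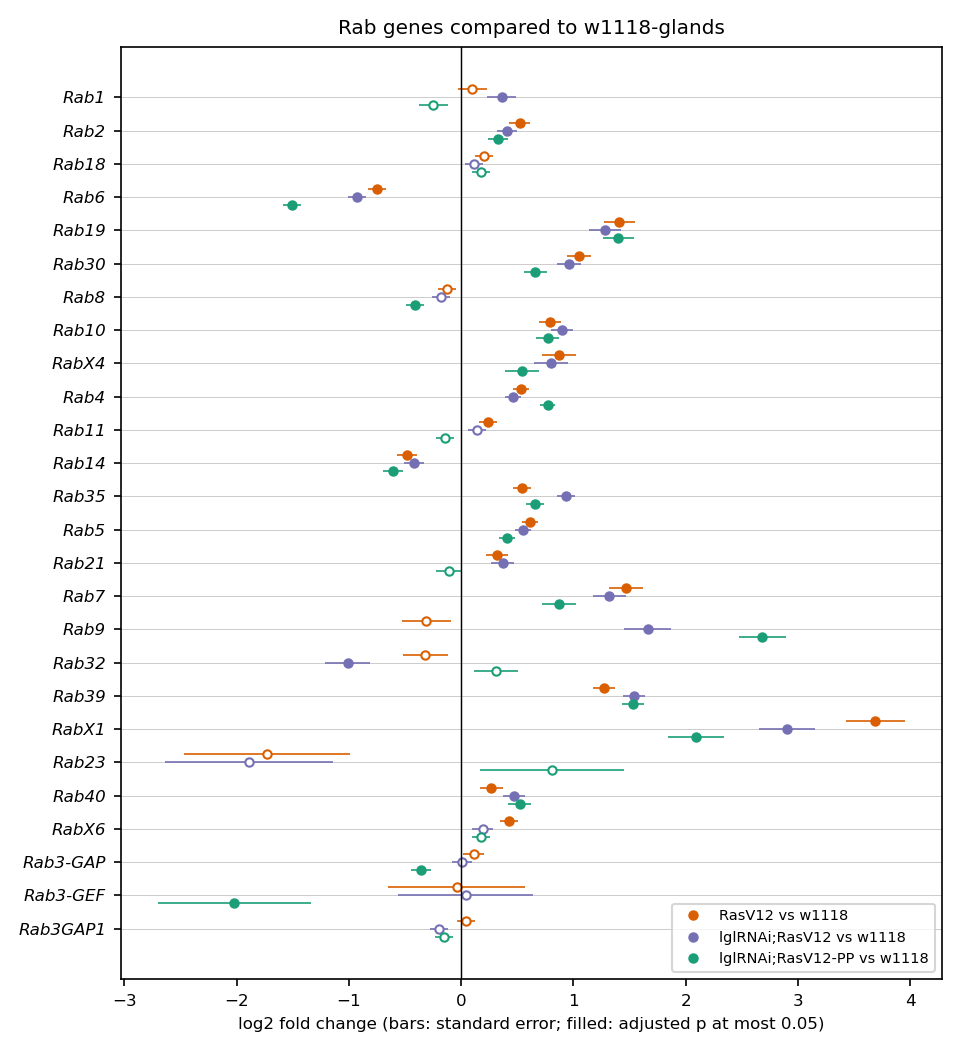
Log2 fold changes of the 26 tested Rab genes against w1118 (points, bars are SE; filled points have an adjusted p of at most 0.05) for RasV12, lglRNAi;RasV12 and the PP. The 3 comparisons share the w1118 libraries. RabX1 lies at 3.69, 2.90 and 2.09, farthest to the right except in the PP, where Rab9 lies at 2.68, and Rab6 lies left of 0 at -0.75, -0.93 and -1.51.

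The remaining members are given by their fold changes. Rab21, of early endosomes, rose in RasV12 and lglRNAi;RasV12 (log2 fold changes 0.32 and 0.37, edgeR, adjusted p = 0.0239 and 0.0119). Rab40, which works in a ubiquitin ligase, was higher in all 3 comparisons (0.27, 0.47 and 0.52), but with an adjusted p of 0.0454 in RasV12 (edgeR) that was lost with the replicate number as a block (adjusted p = 0.053) and without any of 9 libraries in turn. RabX6 was higher in RasV12 (0.43, edgeR, adjusted p = 0.00137) and overlaps Vti1a on the other strand. The regulators Rab3-GAP and Rab3-GEF were lower in the PP (-0.36 and -2.02, edgeR, adjusted p = 0.00603 and 0.023), the latter at no more than 0.83 TMM CPM in any library and lost without any of 4 libraries in turn.

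Between the groups with RasV12, entire lglRNAi;RasV12-glands differed from RasV12-glands in 3 members, with 2 higher and 1 lower, against 7.18% and 5.12% of all genes, shares near which these counts lie. Rab9 rose by 1.97 ± 0.21 (log2, edgeR, adjusted p = 0.000208), rank 42 of 647 higher genes by fold, and Rab35 by 0.39 ± 0.08 (edgeR, adjusted p = 0.00814). Both calls held without any single library. Rab32 was lower by -0.69 ± 0.20 (edgeR, adjusted p = 0.0448), a call lost in 8 of 12 fits without 1 library. RabX1 was at -0.79 ± 0.24 without passing the test (edgeR, adjusted p = 0.0513).

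In the PP compared to entire lglRNAi;RasV12-glands, more Rab genes were lower than higher, with 11 lower and 4 higher against 17.7% and 20% of all genes. For the GTPases this amounts to 39.1% lower and 17.4% higher, with a median of -0.14 against 0.00. The lower ones spanned the secretory route, with Rab1 at -0.62 ± 0.13 (edgeR, adjusted p = 0.00367), Rab6 at -0.57 ± 0.08 (edgeR, adjusted p = 0.000229), Rab30 at -0.30, Rab8 at -0.24 and Rab11 at -0.29 (edgeR, adjusted p = 0.0369, 0.0282 and 0.0115). The endosomal RabX1 (-0.81 ± 0.24), Rab7 (-0.46 ± 0.15), Rab21 (-0.47) and Rab35 (-0.27) were lower too (edgeR, adjusted p = 0.0188, 0.0279, 0.00426 and 0.0177), as were Rab3-GAP (-0.37) and Rab3-GEF (-2.06). In contrast, Rab32 (1.32 ± 0.20), Rab9 (1.02 ± 0.19) and Rab4 (0.31) were higher (edgeR, adjusted p = 0.00052, 0.00197 and 0.0052). Rab23, known from Hedgehog signalling and planar polarity, was higher as well (2.70 ± 0.71, edgeR, adjusted p = 0.0116), at 0.0585 to 0.14 TMM CPM in entire glands and 0.329 to 1.17 in the PP, with at most 42 counts in a library. The PP is a part of the gland measured in the entire-gland group, so that this comparison is one of a part with its whole.

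**Figure D4:**
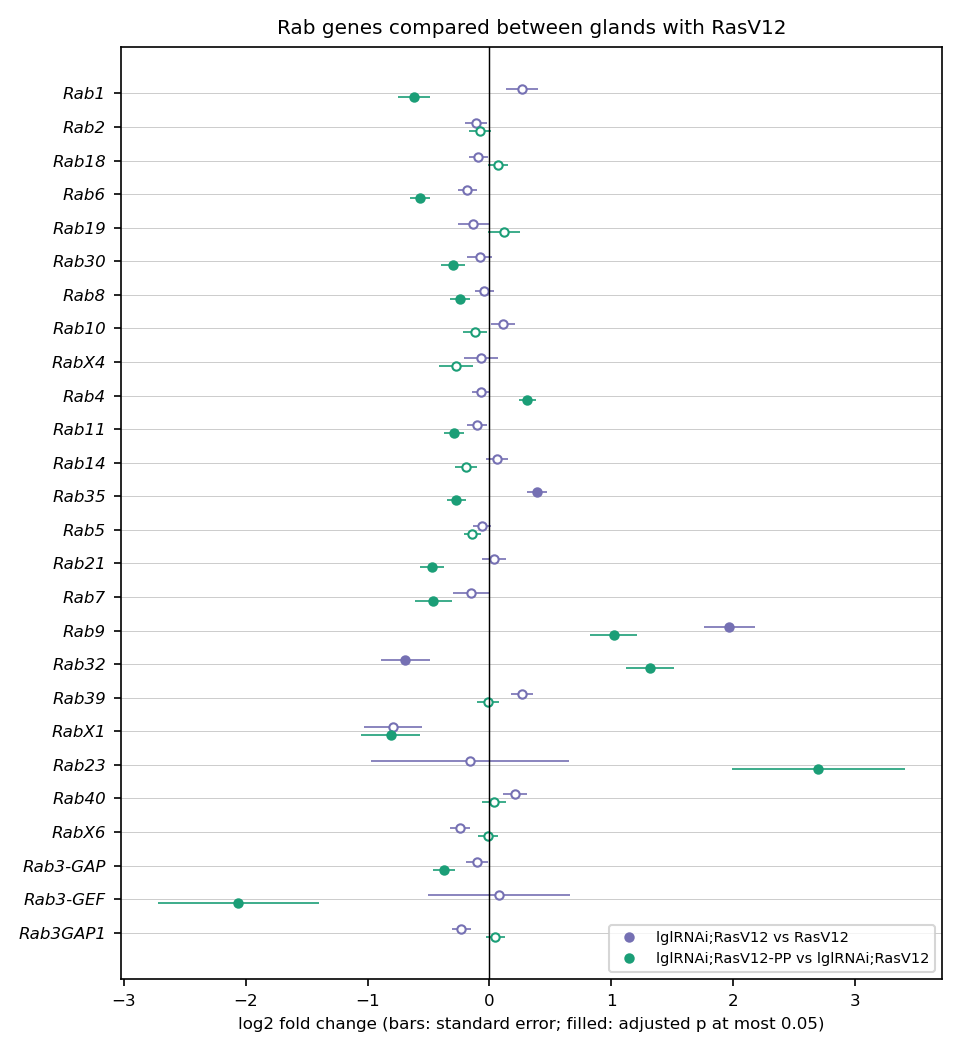
Log2 fold changes of the tested Rab genes (points, bars are SE; filled points have an adjusted p of at most 0.05) between lglRNAi;RasV12 and RasV12-glands and between the PP and lglRNAi;RasV12-glands. Rab9 is right of 0 in both comparisons, at 1.97 and 1.02, whereas Rab32 lies at -0.69 in the first and 1.32 in the second.

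The 11 lower calls in the PP rest in part on single libraries. They numbered 5 without lglRNAi;RasV12 replicate 1, 4 without PP replicate 1 and 7 without PP replicate 3, whereas Rab1, Rab6, Rab21, Rab3-GAP, Rab4, Rab9 and Rab32 kept their calls in each fit without 1 library. The number that ends the library identifiers, whose meaning is not given in the sources used here, also differs between the groups. The w1118 libraries share it with RasV12 replicates 2 and 3 and PP replicate 1, RasV12 replicate 1 shares another with the 3 lglRNAi;RasV12 libraries, and PP replicates 2 and 3 have one each. Without RasV12 replicate 1, the RasV12 and w1118 libraries compared share the same number, and 12 members were higher and 2 lower. The other groups, with their other numbers, stayed in that fit for the scaling and the estimate of the spread. The share of all genes was not counted for it, so that these counts only describe the fit. With the number as a term, a fit in which the PP to lglRNAi;RasV12 comparison is tied to PP replicate 1 and RasV12 replicate 1, no member was called there by edgeR (1 higher and 1 lower at an unadjusted p under 0.05), and 83 of all genes were higher and 18 lower. Rab6 was then at -0.51, Rab9 at 0.96 and Rab32 at 0.92. In lglRNAi;RasV12 against RasV12 this fit sets the lglRNAi;RasV12 libraries against RasV12 replicate 1 alone. Rab9 was at 2.04 there, and no call is read from it.

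Marker genes of other cell types differed between the groups. The 6 fat body markers summed to 11316 to 26812 TPM in w1118, 7714 to 11255 in RasV12, 11618 to 16442 in lglRNAi;RasV12 and 3232 to 3701 in the PP, and by TMM all 6 were lower than w1118 in each group. On log2(TPM + 1) 5 of them were lower in RasV12, 0 in lglRNAi;RasV12 and 6 in the PP. The tracheal markers summed to 16.2 to 17.4 TPM in w1118, 7.13 to 8.32 in RasV12, 7.27 to 11.3 in lglRNAi;RasV12 and 22.9 to 35.9 in the PP. The hemocyte markers summed to 28.8 to 38.7 in w1118, 66.2 to 83.0 in RasV12, 68.6 to 114 in lglRNAi;RasV12 and 81.4 to 89.3 in the PP, but by TMM 1 of the 9 (crq, at 65.7 TMM CPM in w1118 and 133 in RasV12) was higher and 2 were lower in RasV12 (median log2 fold change -0.88), 1 was higher and 1 lower in lglRNAi;RasV12 (median -0.05), and 2 were higher and 1 lower in the PP (median 0.78). The duct and imaginal ring markers were higher in 3 of 4 tested genes when the PP was compared to the entire glands of its genotype. None of these markers was at 0 in all 3 libraries of a group, and their part in the Rab values was not tested. In such bulk samples, fewer cells of a type and less RNA per cell cannot be told apart.

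The machinery around the Rabs was described by gene lists, read beside the same background shares. Of all genes, 25.8% were higher and 23.1% lower in RasV12 compared to w1118. These shares were 28.2% and 23.5% in lglRNAi;RasV12, and 33.5% and 25.2% in the PP. In the PP compared to lglRNAi;RasV12-glands, 20% were higher and 17.7% lower. Of the 34 tested Rab regulators, 14 were higher and 2 lower in RasV12 compared to w1118 (median log2 fold change 0.13), 12 and 0 in lglRNAi;RasV12, and 14 and 5 in the PP. RabGGTa and RabGGTb, the subunits of the geranylgeranyl transferase that lipidates Rabs, rose by 1.27 ± 0.12 and 0.98 ± 0.13 in RasV12 (edgeR, adjusted p = 6.37e-06 and 5.87e-05), and sky, which encodes a TBC-domain protein of the class that inactivates Rabs, by 1.73 ± 0.18 (edgeR, adjusted p = 1.52e-05). In the PP compared to lglRNAi;RasV12-glands 9 regulators were lower and 3 higher, and RabGGTb and sky were among the lower ones (-0.90 and -1.17, edgeR, adjusted p = 0.000291 and 0.000546). Of the 35 tested Rab effectors, 12 were higher and 9 lower in RasV12 (median 0.15), counts that lie near the shares of all genes. On log2(TPM + 1) the regulators gave 28 higher and 0 lower and the effectors 26 and 3, with medians of 0.26 and 0.23 above that of all genes. In that fit 61.9% of all genes were higher and 5.43% lower. Among the effectors with the lowest p, Rilpl, related to lysosomal effectors of mammals, rose by 1.29 ± 0.10 (edgeR, adjusted p = 2.03e-06), while the Golgi tethers p115 and GM130 fell by 0.92 and 0.97 on the log2 scale (edgeR, adjusted p = 3.62e-06 and 6.53e-06). In the PP compared to lglRNAi;RasV12-glands, the Rab11-binding proteins Rip11 (1.59 ± 0.21) and nuf (1.07 ± 0.13) rose (edgeR, adjusted p = 0.000205 and 0.000127), where Rab11 itself was lower.

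Genes for the late steps of exocytosis were counted likewise, beside the same shares of all genes (25.8% higher and 23.1% lower in RasV12). Of the 8 exocyst genes, whose products tether vesicles to the plasma membrane, 4 were higher and 1 lower in RasV12 (median 0.25), 6 and 1 in lglRNAi;RasV12 and 4 and 2 in the PP. Sec10 rose by 0.71 ± 0.09 and Sec6 fell by 0.65 on the log2 scale (edgeR, adjusted p = 6.09e-05 and 8.71e-05). Of 29 tested SNARE and fusion genes, 13 were higher and 6 lower in RasV12 (median 0.06). The vesicle SNARE Syb (1.07 ± 0.09, edgeR, adjusted p = 2.68e-06) and the SNARE Snap24 (1.32 ± 0.12, edgeR, adjusted p = 4.51e-06) rose. Syx18 (-1.45 ± 0.12, edgeR, adjusted p = 2.37e-06) and its partner Slh (-1.01 ± 0.09, edgeR, adjusted p = 2.96e-06), which serve fusion at the endoplasmic reticulum and Golgi, fell. These counts depend on the scaling, since on log2(TPM + 1) 7 exocyst genes were higher and 0 lower in RasV12, and 22 SNARE and fusion genes were higher and 2 lower, with medians of 0.34 and 0.16 above that of all genes. Of all genes, 61.9% were higher and 5.43% lower there. In the PP compared to lglRNAi;RasV12-glands 13 SNARE and fusion genes were lower and 1 higher (median -0.28).

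The cargo and the coat proteins of the early secretory route went down with TMM scaling. All 8 glue genes were lower in each comparison with w1118, with medians of -2.01, -1.77 and -2.95. Sgs1 went from 68700 ± 14400 TMM CPM in w1118 to 10000 ± 1850 in RasV12 (SD, n = 3; log2 fold change -2.78, edgeR, adjusted p = 1.11e-06), and Eig71Ee from 63100 ± 10700 to 7650 ± 1660 (-3.04, edgeR, adjusted p = 1.1e-06). Of the 16 COPI and COPII genes, whose coats carry cargo between endoplasmic reticulum and Golgi, 16 were lower in RasV12, 15 in lglRNAi;RasV12 and 16 in the PP (medians -0.70, -0.69 and -0.96), among them deltaCOP (-0.93), Sec24CD (-1.11) and Sec13 (-0.78) in RasV12 (edgeR, adjusted p = 5.32e-06, 7.48e-06 and 1.33e-05). This depends on the scaling, since in TPM 1 was higher and 1 lower in RasV12 (median -0.01) and 12 were lower in the PP (median -0.42), although relative to the median gene the coat genes lay at -0.50 and -0.87 there. Of 5 regulators of secretory genes, sage, a salivary gland transcription factor, and CrebA fell in RasV12 by 1.26 and 0.60 on the log2 scale (edgeR, adjusted p = 2.14e-05 and 0.00692), whereas Xbp1, of the unfolded protein response, rose by 0.68 (edgeR, adjusted p = 0.000142).

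**Figure D5:**
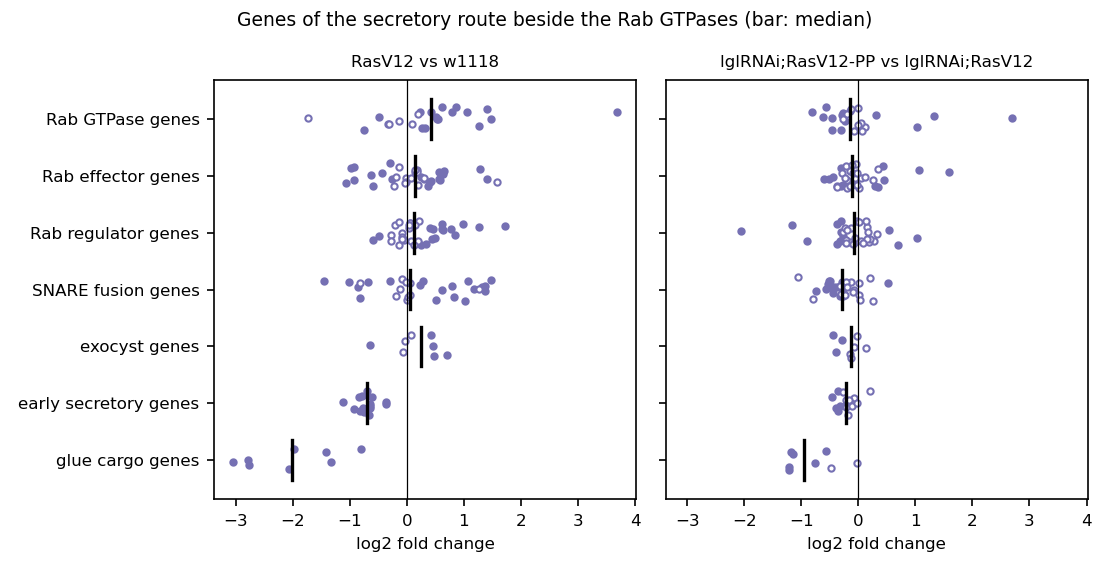
Log2 fold changes of the genes in each list (points) with the list's median (bar), for RasV12 compared to w1118 (left) and the PP compared to lglRNAi;RasV12-glands (right). On the left, the Rab GTPases have a median of 0.43, the COPI and COPII genes of -0.70 and the glue genes of -2.01, and on the right these medians are -0.14, -0.22 and -0.95.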

How the data were processed

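Per the methods, which do not mention strand, poly(A) RNA was made into TruSeq v2 libraries. The authors estimated transcript abundances with kallisto 0.44.0 on the transcripts of the dmel r6.19 release (their own statistics used sleuth 0.30.0). The deposited tables give estimated counts and TPM per transcript for the 12 libraries. Estimated counts divide reads shared by isoforms or similar genes by a model, and TPM sums to 1000000 in each library, so that a few very abundant transcripts lower all others.

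Here both units were summed per gene with a dm6 annotation of a later release. Of 30503 transcripts, 224 had no match (0.197 to 0.359% of counts) and were left out. The summed estimated counts, rounded to whole numbers, were filtered by edgeR's filterByExpr with a minimum count of 10, leaving 9012 genes, scaled by TMM, and fitted over all 4 groups with edgeR's quasi-likelihood test (edgeR 4.0.16, R 4.3.3) for 5 comparisons, with Benjamini-Hochberg adjustment over all tested genes and a threshold of 0.05. Checks on simulated counts were run first. Groups came from the sample labels, and replicates are the 3 separately dissected samples of each. The SE of a log2 fold change comes from the fit and includes the spread between replicates. The limit for 0 counts (3 counts) covers counting error only.

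The Rab genes and all lists were chosen with earlier results of these data known. After levels or counts had been seen, sun and gig were removed from the lists, RabX1 was placed with the late endosomal Rabs, and Rab3-GAP took the place of another symbol. Values in every library are given for Rab1, Rab2, Rab5, Rab6, Rab7, Rab8, Rab10 and Rab11 and the 12 members with the largest called change and a mean of at least 1 TPM in a group. Other members are named where a count was 5 or fewer or a comparison turned on them. At most 5 genes are named per list, those with the lowest p, and some genes, such as Sec5, Sec15, Rab3-GEF and Rab3GAP1, count in more than 1 set. Sgs1, sage and CrebA are also among the gland markers.

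Alternatives were library-size scaling, DESeq2 1.42.0, no filter, the replicate number as a block, the glue genes left out, limma 3.58.1 (limma-trend) on log2(TPM + 1) and log2(TPM + 0.1), only the 2 groups compared, and each library left out. A fit with the library number as a term was added after seeing the data. Replicate numbers are those of the sample titles, and for the PP replicates 2 and 3 the deposited files carry other numbers (3 and 4), which were not used. These numbers were taken as pairing samples where every same-numbered pair deviated together with a correlation over 0.1, which held for RasV12 against w1118 (0.15, 0.12 and 0.21) and lglRNAi;RasV12 against w1118 (0.21, 0.22 and 0.18), a pairing that comes from the data and not from the labels.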

Additional observations from a re-analysis of the deposited data

How the results depend on the processing

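The counts of Rab genes higher than w1118 stayed within 1.5 times of 15, 15 and 13 under every alternative run. The shares of all genes that were higher did move. They were 25.8%, 28.2% and 33.5% by TMM and 61.9%, 64.5% and 59.6% on log2(TPM + 1). A steady count of Rab genes is therefore no measure of their excess over all genes. The counts of lower Rab genes did not stay within 1.5 times. By library size 1 Rab gene was lower in RasV12 (2 by TMM) and 1 in the PP (5 by TMM), and in both TPM fits 0 were lower in RasV12, 0 in lglRNAi;RasV12 (3 by TMM) and 1 in the PP. DESeq2 gave 6 lower in lglRNAi;RasV12 and 8 in the PP. By library size the median of all genes itself lay at 0.42 in RasV12 and 0.56 in the PP. Shares of all genes called were not counted for the fits by library size, DESeq2, replicate block, paired groups or with a library left out. Counts of Rab genes from these fits are therefore a description of each fit. Rab8 in the PP against w1118 changed direction, from -0.41 to 0.05 by library size, 0.16 with log2(TPM + 1) and 0.17 with log2(TPM + 0.1). These alternatives do not take the glue genes' share of the w1118 libraries out of the scale, whereas TMM does in part. Leaving the glue genes out changed none of 130 calls.

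For lglRNAi;RasV12 against RasV12, the 1 lower gene became 2 by library size, 2 with the replicate block, 2 with only the 2 groups compared and 5 with DESeq2, and 0 to 2 without 1 library. For the PP against lglRNAi;RasV12, 4 to 11 genes were lower without 1 library. With the library number as a term, chosen after seeing the data, the comparison of lglRNAi;RasV12 with RasV12 rests on a single RasV12 library. The comparison of the PP with lglRNAi;RasV12 is tied to single libraries as well, so that this fit cannot decide on the calls in either. Rab1 in lglRNAi;RasV12 against w1118 went from 0.36 to -0.09 in it. The cause of these shifts was not tested. The replicate block kept 127 of 130 calls. It lost Rab40 in RasV12 and Rab1 in lglRNAi;RasV12, where the numbers pair the samples, and gained RabX1 as lower in lglRNAi;RasV12 against RasV12 (adjusted p = 0.0431), where they do not (mean correlation -0.02). With 3 libraries a group, small changes such as those of Rab11, Rab18 and Rab40 sit near what the test can call, and Rab23 and Rab3-GEF rest on few counts.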

Other observations

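Transcript use differed between groups for Rab14 and Rab7, in kallisto's estimates, which were described and not tested. For Rab14, the transcript FBtr0080626 took 23.3, 17.6 and 16.6% of the gene's estimated level in w1118, 71.3, 58.7 and 53.3% in RasV12, 73.4, 58.5 and 63.9% in lglRNAi;RasV12 and 59.1, 80.5 and 70.8% in the PP. All 9 libraries with RasV12 were above w1118. The transcript FBtr0343678 went the other way, with 37.0, 47.6 and 44.7% in w1118 and 0.0 to 22.1% elsewhere. For Rab7, FBtr0308611 took 13.4, 6.5 and 9.0% in w1118 and 18.4 to 30.1% in the other libraries except PP replicate 3, which was at 7.9%. These shares rest on how reads common to several isoforms were divided.

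Rab9 lies next to CG10237, which runs on the minus strand (2L, 19435850 to 19442727) with 8 bases between the genes, and was looked at after its values had been seen. CG10237 was at 5.37, 6.49 and 5.83 TMM CPM in w1118, 1.92, 1.76 and 2.05 in RasV12, 7.69, 10.8 and 10.4 in lglRNAi;RasV12 and 35.3, 24.8 and 28.4 in the PP. It was higher in lglRNAi;RasV12 than in RasV12 by 2.33 ± 0.17 on the log2 scale (edgeR, adjusted p = 1.62e-05) and higher in the PP than in lglRNAi;RasV12 by 1.62 (edgeR, adjusted p = 2.5e-05), the same directions as Rab9. RtcB on the other side, 129 bases away, was at -0.29 and 0.03 in these comparisons. No use of strand is described for the counting, and a part of CG10237 reads in the Rab9 counts was not tested.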
